A study of Mus musculus with 24 samples.

Results

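The profiles of 7 genes were described in livers of α7HMZ and WT mice: Cd207, Slc10a2, Gm826, Mbd1, Pla2g12a, 8430419L09Rik and Fermt2. These members were taken by symbol from the 23411 rows of the deposited count table, and all 7 were found. They had been picked because the difference between α7HMZ and WT livers of fed mice depended on the time of day more clearly than for nearly all other genes. Every value of the members in fed livers is therefore given as a description, without a test. The fasted livers were not used for the choice, and the test of genotype was run there.

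Liver poly(A) RNA of 24 male mice was sequenced, with 3 mice in each of 8 groups. The α7HMZ mice carry an exon swap in Hnf4a and make only P2-HNF4α, and the WT mice carry the unaltered gene. The swap is in the germ line, so organs other than the liver carry it too. Both genotypes had a mixed 129/Sv plus C57BL/6 background, were 16 to 20 weeks old, and were fed ad libitum until 10:30 or 13:30, in the light phase, or until 20:30, after lights off. In addition, 3 mice of either genotype went without food for 12 h before 10:30. The fed 10:30 livers of both genotypes and the fasted WT livers were run on flow cell 375 and all others on flow cell 377. Each fed comparison of genotypes thus lies within a flow cell. Flow cell and genotype cannot be told apart in the fasted livers, nor flow cell and time between fed livers at 10:30 and later, nor flow cell and feeding in α7HMZ livers.

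HNF4α is a nuclear receptor that maintains the program of hepatocytes. Its gene is transcribed from a P1 promoter, which is the one used in the adult liver, and from a P2 promoter, which is used in fetal liver and gut and gives a protein with a different N-terminus. The hepatic clock runs on the activators CLOCK and BMAL1 (encoded by Arntl), which bind E-boxes, and on their repressors, and it passes its rhythm on through output factors such as DBP. Feeding and fasting act on many of the same liver genes. The members come from unrelated families: a bile acid carrier, a lectin, a phospholipase, a methyl-CpG-binding protein, an adaptor of integrins and a pair of little-studied proteins.

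Each library held 8545959 to 28445590 counts. Levels are given in CPM (counts scaled to library size, with TMM factors over all 24 libraries) and were compared between livers, not between genes. The hepatocyte product Alb was at 56937 CPM or more in all livers. Hnf4a, counted over the whole gene so that its count does not check the genotype, spanned 806 to 1282 CPM in fed α7HMZ and 575 to 1105 CPM in fed WT livers. The ribosomal transcript Rn45s took 50.8% of the counts of α7HMZ replicate 1 at 10:30, 3.76% in 1 other library and at most 0.405% in the remaining ones. Krt19, a keratin of bile ducts, spanned 0.787 to 14.3 CPM in fed α7HMZ and 0.573 to 18.3 CPM in fed WT livers. In bulk RNA, fewer cells of a type and less RNA per cell cannot be told apart.

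The measure behind the choice was the test of genotype by time in edgeR, fitted on the 18 fed libraries. It called 665 of 13334 genes at an adjusted p under 0.05, which is 4.99% of the genes tested, and the 7 members are among them by construction. The count depends on single libraries, from 107 without WT replicate 2 at 10:30 to 1834 without α7HMZ replicate 1 at 10:30. The members took ranks 1 (Cd207, F statistic 42.5), 2 (Slc10a2, 42.0), 3 (Gm826, 40.9), 4 (Mbd1, 39.4), 6 (Pla2g12a, 35.8), 8 (8430419L09Rik, 31.8) and 9 (Fermt2, 30.5). Of the genes that are not members, Got1, a cytosolic aspartate aminotransferase, stood at rank 5 (F 37.8) and Hspa1a, an inducible heat shock protein, at rank 10 (F 30.5). The swing, taken as the largest minus the smallest of the 3 log2 differences between α7HMZ and WT livers, was 4.64 for Slc10a2, 3.11 for Cd207, 2.78 for Gm826, 2.66 for Mbd1, 1.36 for Pla2g12a, 1.28 for 8430419L09Rik and 1.06 for Fermt2, beside a median of 0.47 over all genes tested. The members thus span profiles in which the sign of the difference turns over the day and profiles in which only its size varies.

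**Figure D1:**
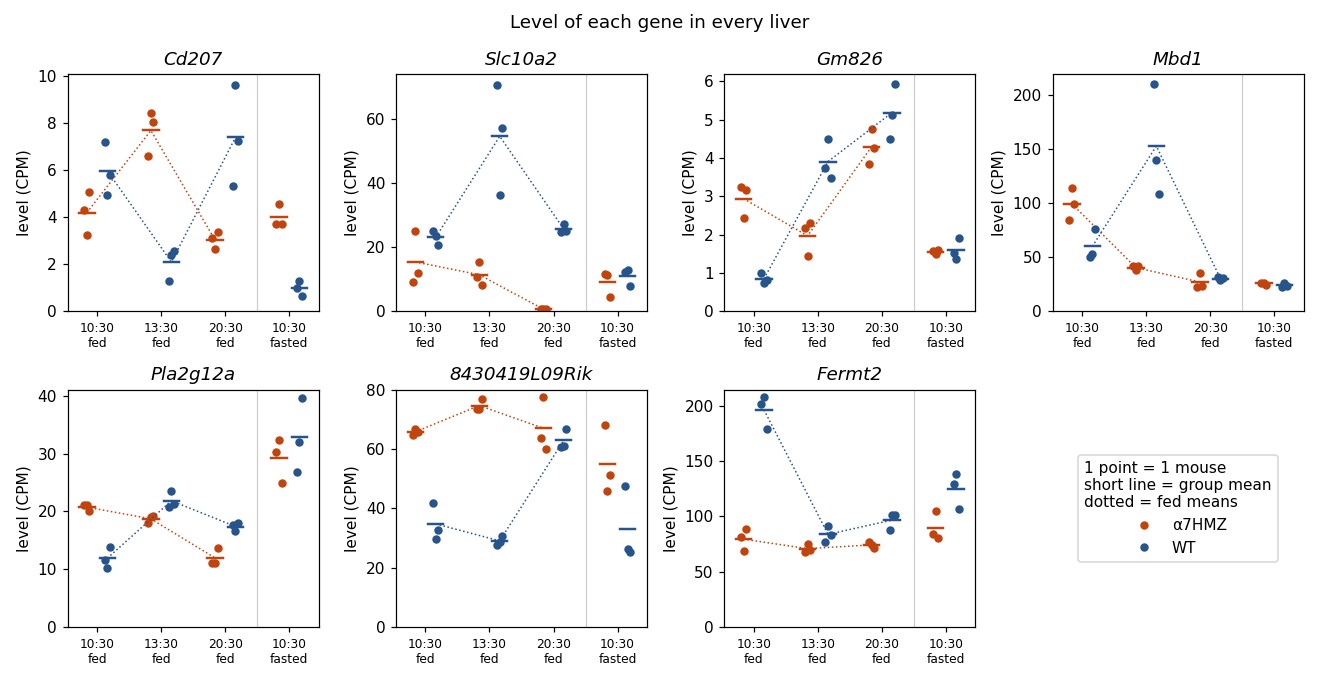
Level of each of the 7 genes (CPM, linear axis from 0) in every liver, for fed mice at 10:30, 13:30 and 20:30 and for mice fasted for 12 h at 10:30. Points are single mice, α7HMZ (orange) left of WT (blue), short lines are group means and dotted lines join the fed means. Slc10a2 is below 1 CPM in all 3 α7HMZ livers at 20:30, and Cd207 is lower at 13:30 than at the other fed times in WT livers and higher at 13:30 in α7HMZ livers.

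Over the 3 fed times the livers of the genotypes did not overlap in 16 of the 21 sets of values of the members, with all α7HMZ livers above all WT livers in 6 and below them in 10. In all genes tested, 32.7% did not overlap at 10:30, 35.3% at 13:30 and 32.9% at 20:30. Since the members were chosen on these livers, nothing is read from their larger share.

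The promoters were searched for elements that HNF4α and the clock are known to bind, since the members vary with both genotype and time. The windows run from 250 bases before to 50 bases after the start site, in the RefSeq annotation of GRCm38.p6, which has the coordinates of mm10. Windows of 6 members were searched, and Mbd1 was left out of the search. The letters searched on both strands were CACGTG (E-box of CLOCK and BMAL1), TTANGTAA (D-box of DBP, TEF and HLF), AGGTCA (an element of many nuclear receptors), CAAAGTCCA (an HNF4 element) and, for the TATA box, the letters TATAAA. Of 32851 mouse promoters of the same length, 7.15% held CACGTG, 2.32% TTANGTAA, 16.3% AGGTCA, 0.475% CAAAGTCCA and 13.6% TATAAA. Matches were found in the windows of Gm826 and 8430419L09Rik, and no such letters stood in the windows of Cd207, Slc10a2, Pla2g12a and Fermt2. For Pla2g12a and Gm826 the start sites used, 129881184 and 160327494, lie inside the gene positions given below and away from their 5' ends. Sequence at those ends was not searched. The windows printed beside their genes are 1 for each gene with a match, that of the gene with the largest swing and that of the gene that passed the edgeR test in fasted livers. They are in lower case with matches in capitals, where TGACCT and TTTATA are AGGTCA and TATAAA on the opposite strand.

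Slc10a2 encodes the apical sodium-dependent bile acid transporter, which takes up bile acids in the ileum and, in the liver, at the apical face of bile duct cells. The gene lies at chr8:5083219-5105351 on the minus strand (mm10). Its promoter window (chr8:5105238-5105537, minus strand, GRCm38.p6) is shown as that of the gene with the widest range in fed livers:
Slc10a2: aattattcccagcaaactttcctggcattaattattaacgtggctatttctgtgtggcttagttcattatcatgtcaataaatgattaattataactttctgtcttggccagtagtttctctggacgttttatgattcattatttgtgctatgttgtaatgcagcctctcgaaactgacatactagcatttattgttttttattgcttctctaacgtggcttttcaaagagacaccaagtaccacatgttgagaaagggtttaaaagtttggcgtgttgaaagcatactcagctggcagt
At 10:30 Slc10a2 stood at 9.18, 25.1 and 12.0 CPM in α7HMZ livers, against 25.2, 23.4 and 20.6 CPM in WT livers, and the genotypes overlapped through α7HMZ replicate 2. At 13:30 it stood at 10.7, 15.3 and 8.28 CPM in α7HMZ livers, against 70.5, 36.2 and 57.1 CPM in WT livers. At 20:30 it stood at 0.635, 0.688 and 0.731 CPM in α7HMZ livers (16, 11 and 13 counts), against 24.8, 27.3 and 25.0 CPM in WT livers. All α7HMZ livers thus lay below all WT livers at the later times. The log2 difference, α7HMZ minus WT, was -0.58 (SE 0.29) at 10:30, -2.25 (SE 0.29) at 13:30 and -5.22 (SE 0.40) at 20:30. Without α7HMZ replicate 2 the difference at 10:30 was -1.10. From 13:30 to 20:30 the level was lower by 16.6-fold in α7HMZ livers and by 2.12-fold in WT livers. WT livers had their highest level at 13:30 and α7HMZ livers their lowest at 20:30.

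Because the transporter is known from bile duct cells of the liver, the markers of these cells are given beside it. Which cells of these livers held the Slc10a2 RNA was not tested. All 13 markers in the list had counts in every group. Their summed level at 20:30 was 162 to 263 CPM in α7HMZ livers and 163 to 217 CPM in WT livers, while the 13:30 sums were 210 to 231 CPM in α7HMZ and 195 to 211 CPM in WT livers. Most of the sum is Aqp1 and Spp1, with means of 122 and 44.0 CPM over all livers. The means of Krt19, Epcam and Krt7 were 3.38, 1.68 and 1.12 CPM, so the sum says little about these 3 genes. Krt19 itself was at 14.3, 2.13 and 12.5 CPM in α7HMZ livers at 20:30, where Slc10a2 was at its lowest, against 1.04, 18.3 and 4.32 CPM in WT livers. The part of these cells in the level of Slc10a2 was not tested. Slc10a1, the paralog that carries bile acids into hepatocytes, differed by -0.80 (SE 0.11), -0.60 (SE 0.11) and -0.40 (SE 0.11) on the log2 scale at 10:30, 13:30 and 20:30, with an edgeR adjusted p of 0.197 for genotype by time.

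Cd207 encodes langerin, a C-type lectin that defines Langerhans cells and some other dendritic cells. The gene lies at chr6:83671215-83677857 on the minus strand (mm10), and its promoter window (chr6:83677808-83678107, minus strand, GRCm38.p6) is shown because only this member passed the edgeR test in fasted livers:
Cd207: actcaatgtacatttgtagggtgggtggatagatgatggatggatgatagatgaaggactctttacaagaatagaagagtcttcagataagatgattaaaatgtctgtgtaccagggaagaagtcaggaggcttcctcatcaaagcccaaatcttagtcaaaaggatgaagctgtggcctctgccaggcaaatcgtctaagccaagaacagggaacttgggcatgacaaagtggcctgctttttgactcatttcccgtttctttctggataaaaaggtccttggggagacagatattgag
Its counts were low, from 13 to 217 per library. At 10:30 Cd207 stood at 4.28, 3.24 and 5.05 CPM in α7HMZ livers, against 7.17, 4.93 and 5.78 CPM in WT livers, with overlap. At 13:30 it stood at 6.57, 8.40 and 8.05 CPM in α7HMZ livers, against 1.30, 2.40 and 2.58 CPM in WT livers, so that all α7HMZ livers were above all WT livers. At 20:30 the order was the other way, with 3.10, 2.63 and 3.37 CPM in α7HMZ livers, against 5.30, 9.61 and 7.22 CPM in WT livers. The log2 difference was -0.49 (SE 0.25), 1.87 (SE 0.25) and -1.24 (SE 0.25) at the 3 times. The sign of the difference turned at 13:30 and again at 20:30. The profiles mirrored each other, since 13:30 was the highest fed time in α7HMZ livers, 1.80-fold above 10:30, and the lowest in WT livers, 2.87-fold below 10:30.

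The dendritic and Langerhans cell markers other than Cd207, with all 15 counted in every group, summed to 128 to 172 CPM in α7HMZ and 102 to 156 CPM in WT livers at 13:30. At 20:30 they summed to 776, 70.3 and 171 CPM in α7HMZ replicates 1, 2 and 3, against 136 to 249.1 CPM in WT livers. The sums are mostly Cd74, H2-Aa, H2-Ab1 and H2-Eb1, with means of 96.9, 37.4, 29.1 and 28.3 CPM over all livers. No other gene of the list had a mean above that of Irf8, 5.21 CPM. The α7HMZ liver with 776 CPM of these markers had 3.10 CPM of Cd207, between the other α7HMZ livers at that time. The part of these cells in the level of Cd207 was not tested.

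Pla2g12a encodes a secreted phospholipase A2 of group XII, an enzyme family that frees fatty acids from phospholipids, and lies at chr3:129878606-129895825 on the plus strand (mm10). At 10:30 it stood at 21.1, 21.1 and 20.0 CPM in α7HMZ livers, against 11.6, 10.2 and 13.9 CPM in WT livers. The 13:30 values were 17.97, 19.0 and 19.2 CPM in α7HMZ livers, against 20.8, 23.5 and 21.2 CPM in WT livers. At 20:30 it stood at 11.0, 11.1 and 13.7 CPM in α7HMZ livers, against 17.6, 16.7 and 17.9 CPM in WT livers. The genotypes did not overlap at any fed time, and the sign turned between 10:30 and 13:30. The log2 difference was 0.81 (SE 0.12), -0.22 (SE 0.11) and -0.55 (SE 0.12). The level in α7HMZ livers was 1.74-fold lower at 20:30 than at 10:30, whereas that in WT livers was 1.48-fold higher. Its paralog Pla2g12b, which in mice serves lipoprotein secretion by the liver, differed by -0.78 (SE 0.13), -0.82 (SE 0.13) and -1.15 (SE 0.13), and its edgeR adjusted p for genotype by time was 0.271.

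Mbd1 encodes a protein that binds methylated CpG sites and represses transcription, and lies at chr18:74267605-74282732 on the plus strand (mm10). At 10:30 it stood at 84.8, 114 and 99.6 CPM in α7HMZ livers, against 50.7, 53.1 and 76.3 CPM in WT livers. Its 13:30 levels were 41.5, 37.9 and 42.0 CPM in α7HMZ livers, against 210, 140 and 109 CPM in WT livers. At 20:30 it stood at 22.4, 35.6 and 23.2 CPM in α7HMZ livers, against 31.4, 29.2 and 30.5 CPM in WT livers. α7HMZ livers were the higher ones at 10:30 and the lower ones at 13:30, and the genotypes overlapped at 20:30. Its log2 difference at the 3 times was 0.74 (SE 0.21), -1.92 (SE 0.22) and -0.17 (SE 0.22). The last of these was 0.20 without the 4 fed livers that led in Rn45s, Krt19 or Ctrb1. That value rests on a single α7HMZ liver at 20:30, replicate 2, which had the highest level of the α7HMZ livers there. The peak of the measured times was 10:30 in α7HMZ and 13:30 in WT livers. Between 10:30 and 13:30 the level was 2.48-fold lower at the later time in α7HMZ livers and 2.55-fold higher in WT livers. Of its relatives with a methyl-CpG-binding domain, Mbd3 had the smallest edgeR adjusted p for genotype by time, at 0.0514, with log2 differences of 0.66 (SE 0.14), -0.0043 (SE 0.14) and -0.11 (SE 0.14). For Mbd2, Mbd4, Mbd5 and Mbd6 this adjusted p was between 0.123 (Mbd5) and 0.709 (Mbd6).

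Fermt2 encodes kindlin-2, an adaptor that binds the tails of beta integrins and activates them together with talin. It lies at chr14:45458795-45530118 on the minus strand (mm10) and overlaps the annotated 9630050E16Rik and Gm22637 on the same strand. At 10:30 it stood at 81.3, 68.4 and 88.8 CPM in α7HMZ livers, against 202, 207.9 and 180 CPM in WT livers. In the 13:30 livers it stood at 67.7, 74.9 and 69.9 CPM in α7HMZ livers, against 77.1, 91.1 and 83.2 CPM in WT livers. At 20:30 it stood at 76.8, 74.2 and 71.8 CPM in α7HMZ livers, against 87.8, 101 and 101 CPM in WT livers. All α7HMZ livers were below all WT livers at every fed time, and the WT livers at 10:30 stood apart from all other fed groups. On the log2 scale the difference was -1.30 (SE 0.11), -0.24 (SE 0.10) and -0.38 (SE 0.10). Between 10:30 and 13:30 the level was 2.35-fold lower at the later time in WT livers, beside 1.13-fold in α7HMZ livers. Markers of other cell types are given beside these differences, first at 10:30. The 14 stellate cell and fibroblast markers summed to 281 to 383 CPM in α7HMZ and 382 to 484 CPM in WT livers, and the 12 endothelial markers to 331 to 408 CPM in α7HMZ and 448 to 511 CPM in WT livers, all of them with counts. The endothelial sums did not overlap between the genotypes at 10:30 and the stellate sums barely did. Both overlapped at the later times. At 13:30 the endothelial sums were 409 to 424 CPM in α7HMZ and 369 to 414 CPM in WT livers, and the stellate sums 305 to 398 and 300 to 421 CPM. At 20:30 the endothelial sums were 233 to 387 CPM in α7HMZ and 338 to 385 CPM in WT livers, and the stellate sums 279 to 403 and 297 to 388 CPM. The part of these cells in the level of Fermt2 was not tested. Of the other kindlins, Fermt3 of blood cells had an edgeR adjusted p of 0.781 for genotype by time and Fermt1 of epithelia, at most 1.66 CPM in any liver, one of 0.269.

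8430419L09Rik, annotated as Fam234b, encodes a little-studied membrane protein. It lies at chr6:135197977-135244955 on the plus strand (mm10) and overlaps Gsg1 and Hebp1 on the other strand. Strand was not marked in these libraries, and reads from the overlap cannot be told apart. Its promoter window (chr6:135197737-135198036, plus strand, GRCm38.p6) holds AGGTCA at bases -20 to -15 from the start site and, on the opposite strand, at bases -63 to -58. From a further annotated start site, at 135198100, the same letters lie at bases -133 to -128 and -176 to -171, and that overlapping window is not printed:
8430419L09Rik: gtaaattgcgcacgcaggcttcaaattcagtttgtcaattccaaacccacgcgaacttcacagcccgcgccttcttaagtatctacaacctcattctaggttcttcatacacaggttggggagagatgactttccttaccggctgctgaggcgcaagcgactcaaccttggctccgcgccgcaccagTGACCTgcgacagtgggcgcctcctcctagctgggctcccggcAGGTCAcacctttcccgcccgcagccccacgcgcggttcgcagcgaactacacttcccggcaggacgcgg
At 10:30 the gene stood at 64.8, 66.8 and 66.0 CPM in α7HMZ livers, against 41.9, 29.8 and 32.7 CPM in WT livers. At 13:30 it stood at 73.8, 73.5 and 77.1 CPM in α7HMZ livers, against 27.7, 28.6 and 30.9 CPM in WT livers. At 20:30 it stood at 63.9, 77.6 and 60.0 CPM in α7HMZ livers, against 60.9, 61.3 and 67.0 CPM in WT livers. α7HMZ livers were above all WT livers in the light phase, and the genotypes overlapped at 20:30. The log2 difference was 0.93 (SE 0.12), 1.37 (SE 0.12) and 0.088 (SE 0.11), and the last of these was -0.024 without α7HMZ replicate 2 at 20:30. The level in WT livers was 2.19-fold higher at 20:30 than at 13:30, while the largest change between fed times in α7HMZ livers was 1.13-fold, from 10:30 to 13:30.

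Gm826 is a predicted protein-coding gene at chr2:160311393-160334162 on the minus strand (mm10). It is on the chromosome of Hnf4a and 3.17 Mb from it. Its promoter window (chr2:160327445-160327744, minus strand, GRCm38.p6) holds AGGTCA at bases -44 to -39 from the start site, and TATAAA on the opposite strand at bases -242 to -237 and -171 to -166:
Gm826: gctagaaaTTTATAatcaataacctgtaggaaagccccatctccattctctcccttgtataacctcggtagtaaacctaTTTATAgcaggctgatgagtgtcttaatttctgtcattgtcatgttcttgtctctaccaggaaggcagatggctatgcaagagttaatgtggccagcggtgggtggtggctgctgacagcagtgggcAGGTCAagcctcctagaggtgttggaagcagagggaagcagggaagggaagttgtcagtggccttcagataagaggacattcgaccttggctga
Its counts were low, from 10 to 133 per library. At 10:30 Gm826 stood at 3.23, 2.43 and 3.16 CPM in α7HMZ livers, against 0.998, 0.739 and 0.813 CPM in WT livers. Its level at 13:30 was 2.18, 1.43 and 2.30 CPM in α7HMZ livers, against 3.75, 4.49 and 3.49 CPM in WT livers. At 20:30 it stood at 3.85, 4.75 and 4.27 CPM in α7HMZ livers, against 4.51, 5.13 and 5.93 CPM in WT livers. α7HMZ livers were the higher ones at 10:30 and the lower ones at 13:30, with overlap at 20:30. Differences on the log2 scale were 1.78 (SE 0.24), -1.0 (SE 0.20) and -0.28 (SE 0.19). In WT livers the level was 4.52-fold higher at 13:30 than at 10:30, and in α7HMZ livers it was 1.52-fold lower.

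**Figure D2:**
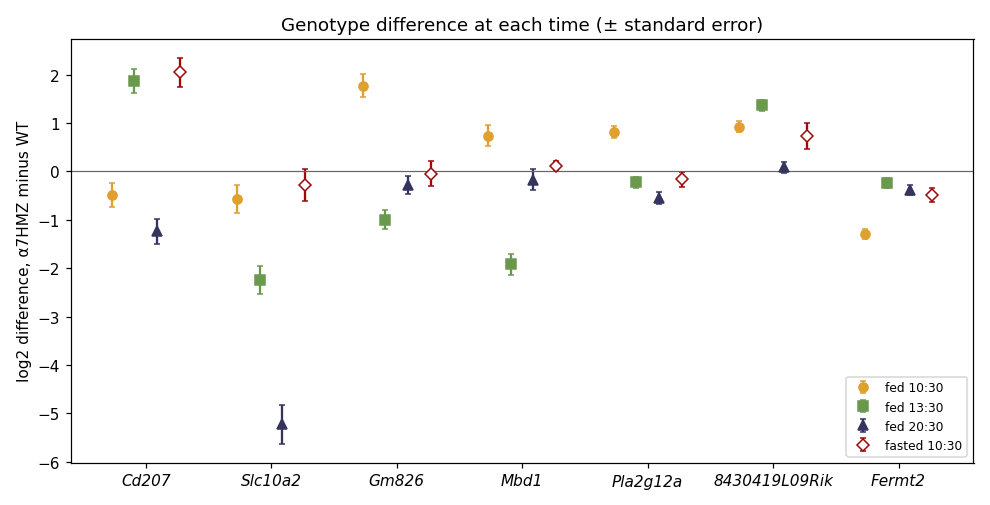
Log2 difference between α7HMZ and WT livers (α7HMZ minus WT) for each of the 7 genes at fed 10:30, 13:30 and 20:30 and after a 12 h fast at 10:30. Points are estimates from 3 α7HMZ and 3 WT livers with their standard errors. The fed values chose the genes and carry no test. In fasted livers Cd207 stands at 2.05, and Gm826 and Mbd1 lie near 0.

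In fasted livers the genotypes were compared in a fit of the 6 fasted libraries alone, in which all 7 members passed the filter on low counts. Cd207 was higher in α7HMZ livers, with 3.72, 4.57 and 3.71 CPM, against 0.982, 1.30 and 0.636 CPM in WT livers. The log2 difference was 2.05 (SE 0.30, 95% interval 1.36 to 2.73, edgeR adjusted p = 0.00507), a 4.13-fold higher level, and all 3 α7HMZ livers were above all 3 WT livers. Among all genes tested, 4.44% were called higher and 6.05% lower in fasted α7HMZ livers. By edgeR Cd207 was the only member called higher. At an unadjusted p under 0.05, and likewise by DESeq2, 2 members were higher, Cd207 and 8430419L09Rik. At that unadjusted p 13.9% of all genes tested were higher, and DESeq2 called 6.72% higher. No member was called lower by edgeR, with 1 lower at an unadjusted p under 0.05 (13.8% of all genes) and 1 lower by DESeq2 (8.39%), which is Fermt2 in both cases. Of the 7 members, 2 did not overlap between the genotypes, Cd207 and Fermt2, beside 33.5% of all genes tested.

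The summed markers of dendritic and Langerhans cells and of Kupffer cells stood apart in 1 fasted liver. In α7HMZ replicate 3 the dendritic and Langerhans list, with all 15 genes counted, summed to 1503 CPM, against 76.4 and 99.8 CPM in α7HMZ replicates 1 and 2 and 69.8 to 76.5 CPM in WT livers. The 11 Kupffer cell markers summed to 977 CPM in that liver, against 208.1 and 231 CPM in the other α7HMZ livers and 128 to 228 CPM in WT livers. Cd207 was at 3.71 CPM in that liver, no higher than in the other α7HMZ livers. Without it the difference of Cd207 was 2.08 (edgeR adjusted p = 0.0054), so the result was as large without that library. The genes of the dendritic and Langerhans list did not move alike. With all fasted libraries the log2 difference was -0.51 for Clec9a, -0.32 for Zbtb46 and 0.058 for Xcr1. It was 0.86 for Ccr2, 1.17 for Irf8 and 1.22 for Cd86. For the genes that make up most of the sum it ran from 2.80 (H2-Eb1) to 3.61 (Cd74).

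Fermt2 stood at 84.0, 105 and 80.4 CPM in fasted α7HMZ livers, against 130, 139 and 107 CPM in fasted WT livers. All α7HMZ livers were below all WT livers, with a log2 difference of -0.48 (SE 0.14, 95% interval -0.81 to -0.15, edgeR adjusted p = 0.0704), which did not pass. 8430419L09Rik stood at 68.2, 45.8 and 51.4 CPM in fasted α7HMZ livers, against 47.6, 26.3 and 25.4 CPM in fasted WT livers. Here WT replicate 1 overlapped the α7HMZ livers, and the log2 difference of 0.73 (SE 0.26, 95% interval 0.13 to 1.34, edgeR adjusted p = 0.116) did not pass. Without that WT liver it was 1.10 (edgeR adjusted p = 0.0174). For Fermt2 the difference was -0.59 (edgeR adjusted p = 0.0338) without WT replicate 3. Both genes thus lie near the threshold, and both passed by DESeq2.

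The other 4 members overlapped between the fasted genotypes. Slc10a2 stood at 11.5, 11.5 and 4.56 CPM in α7HMZ livers, against 12.4, 12.99 and 7.97 CPM in WT livers, a log2 difference of -0.27 (95% interval -1.03 to 0.49, edgeR adjusted p = 0.639). Gm826 stood at 1.57, 1.48 and 1.597 CPM in α7HMZ livers, against 1.52, 1.36 and 1.91 CPM in WT livers, a difference of -0.044 (95% interval -0.62 to 0.54, edgeR adjusted p = 0.931). Mbd1 stood at 26.2, 26.4 and 24.7 CPM in α7HMZ livers, against 22.3, 26.0 and 23.4 CPM in WT livers. Its difference of 0.11 had a 95% interval of -0.13 to 0.36 (edgeR adjusted p = 0.537). Pla2g12a stood at 30.3, 32.5 and 25.0 CPM in α7HMZ livers, against 26.8, 32.0 and 39.7 CPM in WT livers, a difference of -0.16 (95% interval -0.52 to 0.19, edgeR adjusted p = 0.538). These intervals leave room for differences in either direction and are widest for Slc10a2. Krt19 was at 0.629 to 1.08 CPM in fasted α7HMZ livers, against 1.27 to 7.07 CPM in fasted WT livers, and its part in the level of Slc10a2 was not tested.

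Fasted and fed livers at 10:30 were then set side by side within each genotype, without a test, since the fed 10:30 livers had been used for the choice. In the fit of the 12 libraries at 10:30, Cd207 differed by -0.070 (SE 0.24, fasted minus fed, log2) in α7HMZ livers and by -2.62 (SE 0.27) in WT livers, where its fitted level was 6.14-fold lower after the fast. Mbd1 was lower in fasted livers of both genotypes, with log2 differences of -1.95 (SE 0.16) in α7HMZ and -1.32 (SE 0.16) in WT livers. Fasted Mbd1 levels of 22.3 to 26.4 CPM in both genotypes were below those of every fed 10:30 liver. Pla2g12a was higher in fasted livers, by 0.50 (SE 0.16) in α7HMZ and 1.47 (SE 0.16) in WT livers. Gm826 had opposite signs, with -0.92 (SE 0.23) in α7HMZ and 0.90 (SE 0.26) in WT livers. Fermt2 differed by 0.18 (SE 0.14) in α7HMZ and -0.65 (SE 0.14) in WT livers. For Slc10a2 the values were -0.73 (SE 0.36) in α7HMZ and -1.05 (SE 0.35) in WT livers. For 8430419L09Rik they were -0.26 (SE 0.22) in α7HMZ and -0.064 (SE 0.23) in WT livers.

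**Figure D3:**
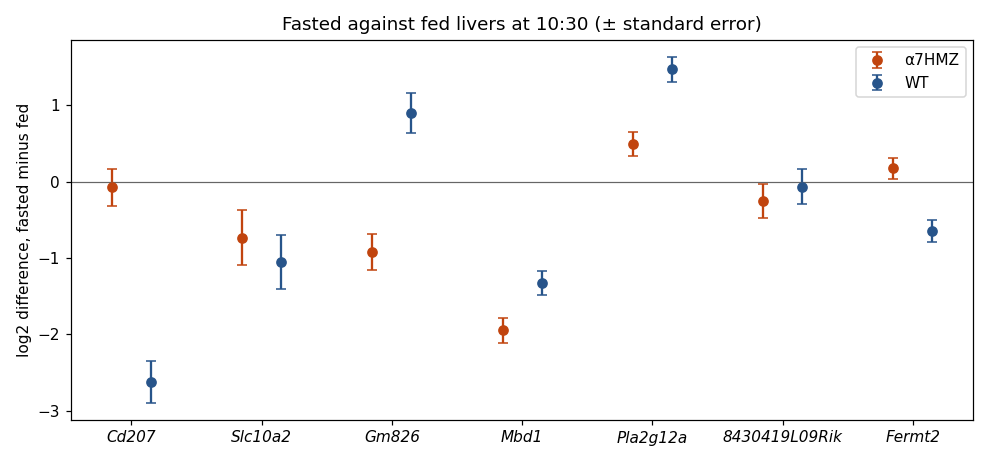
Log2 difference between fasted and fed livers at 10:30 (fasted minus fed) for each of the 7 genes, in α7HMZ (orange) and WT (blue) livers. Points are estimates from 3 fasted and 3 fed livers with their standard errors. Cd207 is at -0.070 in α7HMZ and -2.62 in WT livers, and Gm826 has opposite signs in the genotypes.

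Among themselves the members did not share a profile. Over the 18 fed libraries the Pearson correlation of log2 CPM between members ran from -0.64 (Gm826 and Fermt2) to 0.62 (Slc10a2 and Mbd1). These libraries share time, genotype and flow cell, so the correlations describe the profiles only. Slc10a2, Mbd1 and Pla2g12a had their highest fed mean at 13:30 in WT livers. Cd207, 8430419L09Rik and Fermt2 had their lowest there, and Fermt2 its highest at 10:30.

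For each member the 2 genes with the most similar profile over the 18 fed libraries were named by their Pearson correlation. For Slc10a2 these were Mcm10 (r = 0.93), a factor of DNA replication, and Myom2 (r = 0.90), a protein of the muscle M-band. For Fermt2 they were Enpp3 (r = 0.94), an ectonucleotidase, and Cldn1 (r = 0.94), a tight junction protein. For 8430419L09Rik they were Pcp4l1 (r = 0.89) and Rcan2 (r = 0.89), an inhibitor of calcineurin. Both had large differences at every time, 4.02, 4.43 and 2.68 on the log2 scale for Pcp4l1 and 2.16, 2.12 and 1.29 for Rcan2 (α7HMZ minus WT at 10:30, 13:30 and 20:30). Gm826 was closest to Elp5 (r = 0.89), a subunit of Elongator, and Agpat6 (r = 0.89), an enzyme of glycerolipid synthesis. Mbd1 was closest to Dync1li1 (r = 0.88), a dynein chain, and Pik3c2a (r = 0.87), a lipid kinase. Pla2g12a was closest to Pfkfb3 (r = 0.86), a regulator of glycolysis, and Eif4e2 (r = 0.82), a cap-binding protein. Cd207 was closest to Hmgb3 (r = 0.83), a chromatin protein, and Dnase2a (r = 0.82), a lysosomal nuclease. No member was among the closest genes of another member.

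Related genes from lists of the members' pathways and families, none of them members, were counted in the same test of genotype by time, beside 4.99% of all genes tested. Of the clock list, 3 of 17 tested genes passed by edgeR, with a median swing of 0.69 over the list beside 0.47 over all genes. The clock activators passed, Arntl with log2 differences of -1.0, -0.90 and 1.28 at 10:30, 13:30 and 20:30 (adjusted p = 0.014) and Clock with -0.25, -0.27 and 0.71 (adjusted p = 0.0113). Dbp, named after its value was seen, differed by 1.18, 0.0054 and -1.70 (adjusted p = 0.0187). Arntl and Clock thus had negative differences in the light phase and positive ones at 20:30, and Dbp the opposite at 10:30 and 20:30. The list's count was 7 without α7HMZ replicate 1 at 10:30 and 3 without any of the other libraries in turn.

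Of the C-type lectin receptors, the family of Cd207, 2 of 14 passed by edgeR, Clec4g of sinusoidal endothelium (adjusted p = 0.034) and Cd209f (adjusted p = 0.0423). Clec4g differed by -0.29, 0.45 and -0.31 at the 3 times. Of the phospholipases A2, 2 of 10 passed, the triglyceride lipase Pnpla2 (adjusted p = 0.0197) and the lysosomal Pla2g15 (adjusted p = 0.0454). Pnpla2 differed by 0.19, -0.55 and -0.81. Of the endothelial markers 2 of 12 passed, Clec4g again and Egfl7 (adjusted p = 0.0439), and of the hepatocyte markers 1 of 9, Apob (adjusted p = 0.0349). The median swing was 0.46 over the lectins, 0.48 over the phospholipases, 0.43 over the endothelial and 0.39 over the hepatocyte markers. These calls were unstable when 1 library was left out. The count was 0 without 10 of the 18 libraries in turn for the lectins and for the endothelial markers. It was 0 without 12 for the hepatocyte markers and without 3 for the phospholipases. The count over all genes also fell without most of the libraries.

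In the remaining lists 0 genes passed by edgeR. At an unadjusted p under 0.05 there were 3 of 13 genes of bile acid transport and its control, 6 of 15 methyl-CpG-binding and DNA methylation proteins, 7 of 20 kindlin and integrin genes and 4 of 14 stellate cell markers, beside 26.6% of all genes tested. DESeq2 called 1 gene of bile acid transport, 5 of the methyl-CpG list, 3 of the kindlin and integrin list and 2 stellate cell markers, beside 13.5% of the genes to which it gave an adjusted p. At that unadjusted p there was 1 of 12 bile duct markers and 0 of 13 dendritic, 0 of 11 Kupffer cell and 0 of 2 pancreas genes, and DESeq2 called 0 in each. The median swing was 0.48 over bile acid transport, 0.67 over the methyl-CpG list, 0.49 over the kindlin and integrin list, 0.72 over stellate, 0.69 over bile duct, 0.66 over dendritic, 0.29 over Kupffer cell and 0.52 over pancreas genes.

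In fasted α7HMZ livers 4 of 13 genes of bile acid transport and its control were lower and 1 was higher by edgeR. Beside these and the following counts, 6.05% of all genes tested were lower and 4.44% higher by edgeR. Flow cell cannot be told apart from genotype in these livers. Slc10a1 was lower, at -0.87 (SE 0.15, adjusted p = 0.0103). The other calls, named after their values were seen, were Cyp7a1, the rate-limiting enzyme of bile acid synthesis (-2.52, adjusted p = 0.0163), Cyp8b1 (-2.23, adjusted p = 0.0018) and the carrier Slco1a4 (-0.62, adjusted p = 0.0293), with Abcc4, an export pump, higher (1.74, adjusted p = 0.0127). Bile duct markers were split, with 5 of 12 lower (Krt19, at -2.44 with adjusted p = 0.0362, Krt7, Krt23, Epcam and Muc1) and 2 higher (Sox9 and Anxa13). Of the phospholipases Pla2g12b was lower (-0.62, adjusted p = 0.0127) and Pla2g16 higher (1.33, adjusted p = 0.0049) among 9 tested. Of 17 clock genes 0 were called, whereas Dbp (-1.90, adjusted p = 0.00824) and Tef (-1.09, adjusted p = 0.0365) were called lower by edgeR without α7HMZ replicate 3. Of the 13 lectins Asgr1, a hepatocyte receptor, was lower (-0.89, adjusted p = 0.0051). Hnf4a was higher (0.61, adjusted p = 0.0269) and Alb lower (-0.77, adjusted p = 0.0362) among 9 hepatocyte markers, and 2 of 12 endothelial markers were higher (Lyve1 and Gpr182). Without α7HMZ replicate 3 Alb did not pass (-0.70, edgeR adjusted p = 0.12).

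The lists with 0 calls by edgeR in fasted livers had 7 of 17 clock, 5 of 10 dendritic, 10 of 11 Kupffer cell, 3 of 14 methyl-CpG, 2 of 20 kindlin and integrin, 3 of 14 stellate and 0 of 1 pancreas genes at an unadjusted p under 0.05, beside 27.7% of all genes tested. In these lists DESeq2 called 3 clock genes lower and 2 Kupffer cell, 2 kindlin and integrin and 3 stellate genes higher. It called 0 dendritic, 0 methyl-CpG and 0 pancreas genes. Over all genes DESeq2 called 8.39% lower and 6.72% higher. The median log2 difference was 1.19 over the dendritic and 1.39 over the Kupffer cell markers, beside 0.0076 over all genes tested. Without α7HMZ fasted replicate 3 these medians were 0.16 over the dendritic and 0.36 over the Kupffer cell markers, so that library decided their size, and neither list had a gene past the threshold there. With all 6 fasted libraries the median was -0.23 over the clock list, -0.37 over bile acid transport, -1.18 over bile duct markers, 0.70 over lectins, 0.38 over phospholipases and 0.47 over endothelial markers. Without the same liver it was -0.15 over the clock list, 0.26 over lectins and 0.23 over phospholipases. No gene of the list of dendritic and Langerhans cell markers passed in fasted livers, while Cd207 did, at 2.05 (SE 0.30). Larger differences with wider standard errors were those of Cd74 (3.61, SE 1.18), H2-Ab1 (2.92, SE 1.00), H2-Aa (2.86, SE 1.05) and H2-Eb1 (2.80, SE 1.04). The other tested genes of the list had smaller ones. The part of these cells in the fasted difference of Cd207 was not tested.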

How the data were processed

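Liver poly(A) RNA of 24 mice was sequenced single-end. The methods and the submitters' notes state that the authors used TopHat2 2.1.1 on mm10, allowing 1 unique alignment per read, and then HTSeq 0.6.1 for gene counts. The deposited counts are raw, and the kit is unstranded. Under that setting, reads shared by near-identical copies may be lost or placed at only 1 of the copies, which was not checked. The authors also ran EDASeq for DESeq2 and made FPKM, which were not used here.

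Sample labels gave the groups and replicate numbers. All tests were run with edgeR 4.0.16 in R 4.3.3, using filterByExpr by group, TMM, glmQLFit and glmQLFTest, with Benjamini-Hochberg adjustment over all genes tested and a threshold of 0.05. The 18 fed libraries formed 1 fit of 6 groups (13334 genes tested), with genotype by time tested over both of its terms together. The 6 fasted libraries formed another fit (12887 genes tested), and the 12 libraries at 10:30 a further one for fasted minus fed. A standard error was obtained as the log2 difference over the root of its F statistic. Correlations used log2(CPM + 0.5). The spread behind each p-value is that between 3 mice per group. No pair of replicates agreed within sampling noise (lowest chi-square over its degrees of freedom 11.0).

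The members, gene lists and tests were chosen with earlier results of these data known, so no count over the members supports their choice. The rule for named genes took the 7 members, the 2 genes most like each of them, the genes ranked 1 to 10 for genotype by time, at most 3 genes per list with the smallest p, the family of each member, Hnf4a, Rn45s, Krt19 and Ctrb1 (a pancreas enzyme). A few genes that the rule or the lists would take are not reported here and are left out of the list counts. The lists were core clock, bile acid transport and its control, C-type lectin receptors, phospholipases A2, methyl-CpG-binding and DNA methylation proteins, kindlin and integrin adhesion, and markers of bile duct, dendritic and Langerhans, Kupffer, stellate, endothelial and hepatocyte cells and of pancreas. Gene positions came from GENCODE on mm10 (21777 symbols paired directly, 1278 by an older symbol, 356 not paired). Simulated counts were used to check the tests.

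As alternatives, TMM was replaced by relative log expression factors, by upper quartile factors, or by GC content and full quantile offsets built after the authors' description. DESeq2 1.42.0 replaced edgeR. The filter was dropped or set to 50 counts in 3 libraries. A replicate block was added, more libraries were put in 1 fit, and each library, or the 4 fed livers that led in Rn45s, Krt19 or Ctrb1, was left out. Plots were drawn in Python 3.11.15 (pandas 2.3.3, matplotlib 3.10.9).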

Additional observations from a re-analysis of the deposited data

Results flagged for a closer look

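Among the genes of the lists that are not members, 9 had a genotype difference that depended on the time of day in fed livers (edgeR adjusted p for genotype by time). In the clock list, with 17 genes tested, these were Clock (0.0113), Arntl (0.014) and Dbp (0.0187). Among the lipases, with 10 tested, these were Pnpla2 (0.0197) and Pla2g15 (0.0454). Among the lectins, with 14 tested, they were Clec4g (0.034) and Cd209f (0.0423). Among the cell type markers they were Egfl7 (0.0439, of 12 endothelial) and Apob (0.0349, of 9 hepatocyte markers). Over all genes tested, 4.99% passed. The calls outside the clock list were unstable when 1 library was left out. The members passed the same test by construction and are not counted again. Groups of 3 livers are too small to single out an outlying liver by a fixed rule.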

How the results depend on the processing

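The number of genes called for genotype by time in fed livers, 665, was 107 to 1834 with 1 library left out. It was 143, 107 and 267 without WT replicates 1, 2 and 3 at 10:30, 405 and 200 without WT replicates 1 and 3 at 13:30, and 257 without WT replicate 3 at 20:30. It was 1834 and 179 without α7HMZ replicates 1 and 2 at 10:30, 291, 309 and 247 without α7HMZ replicates 1, 2 and 3 at 13:30, and 437 and 400 without α7HMZ replicates 1 and 3 at 20:30. It was 1584 by DESeq2 and 1187 without the 4 fed livers that led in Rn45s, Krt19 or Ctrb1. That set leaves 1 α7HMZ liver at 20:30, assumed to vary like the others, and there 10 Kupffer cell and 5 dendritic markers were called. In fasted livers 1352 genes were called, 448 to 1273 with 1 library left out (448 without WT replicate 2, 839 and 668 without α7HMZ replicates 1 and 2). It was 2037 with the 12 libraries at 10:30 and 2688 with all 24 libraries in 1 fit. The cause of these shifts was not tested. The same replicate numbers did not pair livers, since deviations of livers with the same number correlated from -0.31 to 0.34. With a replicate block the fed count was 454 and the fasted count 809, and 8430419L09Rik passed in fasted livers (0.78, adjusted p = 0.0337).

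Cd207 was called higher in fasted α7HMZ livers under all 15 alternatives, at 1.80 to 2.30 on the log2 scale (adjusted p 2.12e-06 to 0.0244). 8430419L09Rik passed under 5 of 15 (adjusted p 0.00734 to 0.318) and Fermt2 under 4 of 15 (0.00584 to 0.249). The other 4 members passed under none of theirs. Among these alternatives, the fits with the 12 libraries at 10:30 and with all 24 libraries take in fed livers used for the choice. Cd207, 8430419L09Rik and Fermt2 passed in both fits. The lowest adjusted p of 8430419L09Rik and of Fermt2 came from the fit of all 24 libraries. No support is read from these fits. Of the fed differences of the members, 377 of 378 moved by less than the spread between replicates with 1 library left out. Leaving 1 liver out of so small a group can hardly shift its mean by more than this spread. Most of the libraries left out also came from other times than the difference. Nothing about stability is therefore read from that count. Under the other settings 181 of 189 differences moved by less than the spread. Depth limits Gm826, Slc10a2 and Cd207 most, with as few as 10, 11 and 13 counts in a library.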
